A study of Homo sapiens with 12 samples.

Results

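The complement genes described here are 9 of the 20003 genes in the expression table: 4 components (C3, C1R, C1S and CFB), 2 soluble inhibitors (CFI and SERPING1) and 3 membrane inhibitors (CD46, CD55 and CD59). They were taken by gene symbol, and the set was chosen by its differences between ZNF263 and control libraries in these data, so those differences are given as a description with no test. All 9 were in the table, and 8 passed the filter on low values (2 or more of the 12 libraries with 1 FPKM or above), SERPING1 being the exception.

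Complement is a cascade of plasma proteins that tags cells and microbes and can open pores in their membranes. C1r and C1s are the proteases of the first complex of the classical pathway, factor B supplies the protease of the alternative pathway, and both routes meet at C3, whose cleaved form binds covalently to surfaces. Cells hold the cascade back with soluble proteins such as factor I and C1 inhibitor, and with membrane proteins such as CD46, CD55 and CD59. The liver makes most circulating complement, and epithelial tumour cells, lung cancer lines among them, can also make components and carry the membrane inhibitors.

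The lines PC9, HCC827 and H1975, established from human non-small-cell lung cancers, were studied by RNA-seq, each with ZNF263, a zinc-finger transcription factor, overexpressed or with a control vector, and the series asks what ZNF263 does in these lines. Each of the 6 groups (PC9 control, PC9 ZNF263, HCC827 control, HCC827 ZNF263, H1975 control and H1975 ZNF263) had 2 libraries. All 6 groups, controls included, carry the same treatment label, stepwise osimertinib (an inhibitor of the EGFR kinase), and were kept in DMEM; the titles add OR to each line's name without explaining it. The labels give no promoter for the vector, do not say whether a line is a clone or a pool, and do not say that the 2 libraries of a group came from separate cultures, so the errors and p-values measure only the spread between libraries, which may be technical.

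The label check on ZNF263 held in every line: its mean level was 4.19-fold higher with the ZNF263 vector in PC9, 1.57-fold in HCC827 and 3.98-fold in H1975. Depth was not given, but the FPKM values (fragments scaled to gene length and library size) could be read back into whole reads, and 1 FPKM of the median gene stood for between 64.6 and 79.8 reads in PC9 and HCC827 and between 117.8 and 128.0 in H1975. Of 8 markers of lung adenocarcinoma epithelium, HCC827 had none and H1975 only NAPSA under 0.5 FPKM in all its libraries. The libraries labelled PC9 had 4 there (EPCAM, KRT19, NKX2-1 and NAPSA), with EPCAM at no more than 0.414 FPKM, while KRT8 lay between 1041 and 1662 FPKM. PTPRC, which marks leukocytes, was at most 0.0458 FPKM in any library. Of the macrophage markers, however, CD68 reached 83.1, CD14 21.7 and CSF1R 4.08 FPKM, all in H1975. ALB, APOA1 and TF, which mark hepatocytes, were under 0.5 FPKM in all libraries, as were APOB and TTR where they had a value. FGB, another hepatocyte marker, stood between 12.1 and 20.4 FPKM in PC9 and under 0.5 FPKM in HCC827 and H1975. The PC9 values below are those of the libraries so labelled.

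**Figure D1:**
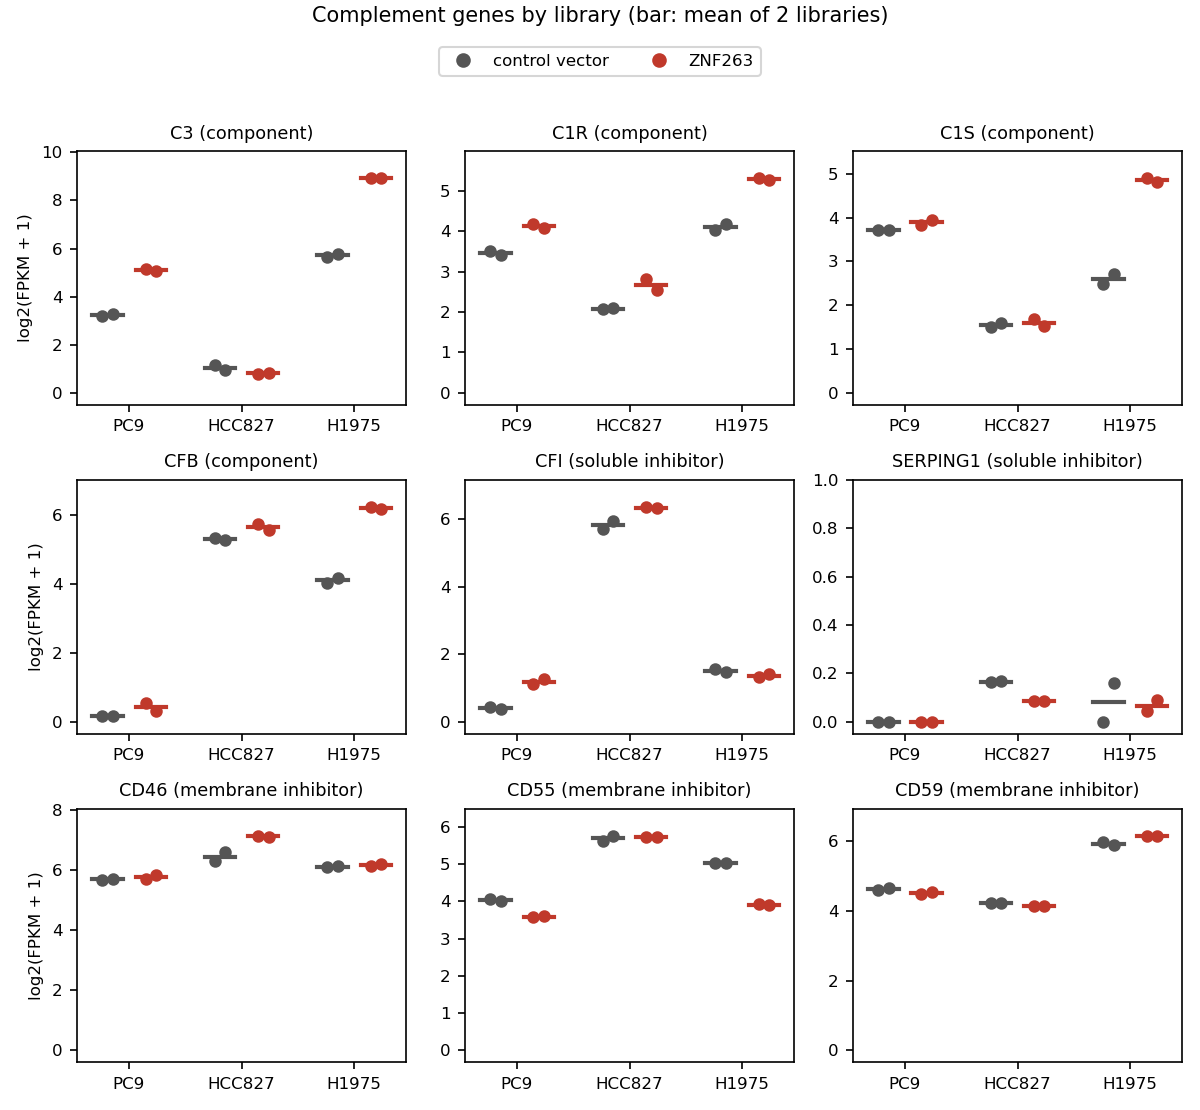
Level of each of the 9 complement genes, as log2(FPKM + 1) on the vertical axis, by line on the horizontal axis. Grey points are control libraries, red points ZNF263 libraries and bars the mean of 2 libraries; C3 in H1975 shows the widest separation, and the SERPING1 points lie near 0 throughout.

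The promoters of the set show where letters of the kind bound by ZNF263 and by inflammatory factors sit next to these genes. RefSeq windows (GRCh38.p14, the 250 bases before each annotated start) were matched for 6 of the 9 genes, C1R, CFB, CFI, CD46, CD55 and CD59, with 11 windows among them; C3, C1S and SERPING1 were not matched. A ZNF263-type string, GGGAGGA on either strand, was present in 3 of the 11 windows, those of C1R, CFB and CFI, against 16.0% of 35116 windows of all genes. These are the 3 matches, each with 10 bases on either side, the string in capitals, and read 5′ to 3′ on the strand of the gene.
C1R, chr12:7091927-7091953, minus strand: gtccgggcagGGGAGGAggctggaaag
CFB, chr6:31945866-31945892, plus strand: gggcttactgGGGAGGAgctaaggccg
CFI, chr4:109802220-109802246, minus strand: ttaacagggtGGGAGGAaatcagtctc

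Counted from the RefSeq start, the C1R string covers positions −50 to −44, the CFB string −219 to −213 and the CFI string −237 to −231. In GENCODE v29 (GRCh38), whose models can start further upstream, the C1R site falls in an exon of a C1R transcript and an intron of its neighbour C1RL, the CFB site in an untranslated exon of a longer CFB transcript, and the CFI site outside any gene. A STAT-type string, TTCNNNGAA, which is its own reverse complement, was present in 4 of the 11 windows (6.57% of all windows). They belong to C1R, CFB and CD59, and the 2 CD59 windows overlap and share 1 site. Capitals again mark the string.
C1R, chr12:7091961-7091989, minus strand: gccagtcctaTTCCTGGAAggggagggga
CFB, chr6:31945993-31946021, plus strand: cgcttggatgTTCCGGGAAagtgatgtgg
CD59, chr11:33736589-33736617, minus strand: ccacccggccTTCTCAGAAcctgggccag

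An interferon-response-type string, GAAANNGAA on either strand, was found in 1 window, that of CFB (6.88% of all windows), where it reads on the minus strand.
CFB, chr6:31945946-31945974, plus strand: cttctgcagtTTCTGTTTCcttgactggc
The kB-type string GGGANTTTC was in none of the 11 windows and in 1.12% of all windows. None of the strings overlapped another in these windows. CFB was the gene with 3 kinds of string and C1R the gene with 2, whereas CD46 and CD55 had none of the 4. These matches describe letters; binding was not measured here.

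C3 was the member with the widest range of levels. In H1975 it stood at 49.7 and 53.1 FPKM in the control libraries and at 489 and 485 FPKM in the ZNF263 libraries. The mean was 9.47-fold higher with ZNF263 and the groups were far apart; C3 moved from rank 1350 to rank 92 among the 12258 genes tested in H1975, counted from the highest level. In PC9 the control libraries held 8.19 and 8.65 FPKM of C3 and the ZNF263 libraries 34.7 and 32.7 FPKM, a 4.0-fold higher mean without overlap. HCC827 differed from both: C3 was 1.20 and 0.932 FPKM with the control vector and 0.738 and 0.768 FPKM with ZNF263. There the ZNF263 libraries lay below the controls, on no more than 113 reads per library against 8780 to 85911 reads in H1975. On the log2(FPKM + 1) scale, which understates differences of low genes, the C3 difference (ZNF263 minus control, ± SE) was 1.88 ± 0.069 in PC9, −0.23 ± 0.069 in HCC827 and 3.22 ± 0.069 in H1975. Without HCC827 control replicate 1, the C3 difference in HCC827 was −0.14. In bulk RNA a lower level can mean fewer cells with the transcript or less transcript per cell, and these cannot be told apart.

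C1R and C1S, the paired proteases that start the classical pathway, are neighbours on chromosome 12 (C1R at chr12:7080199-7092607 on the minus strand and C1S at chr12:6988259-7071032 on the plus strand, GRCh38), 9.167 kb apart. C1R also overlaps the end of C1RL on the same strand, so reads there could have been assigned to either gene and their levels are uncertain to that extent. C1R was higher with ZNF263 in each line, without overlap. Its level went from 10.4 and 9.66 FPKM in PC9 control libraries to 17.0 and 16.0 FPKM in ZNF263 libraries. In HCC827 it stood at 3.21 and 3.27 FPKM in controls and at 6.003 and 4.81 FPKM with ZNF263. In H1975 the control libraries held 15.2 and 17.0 FPKM of C1R and the ZNF263 libraries 38.8 and 37.8 FPKM. The C1R mean was thus 1.64-fold higher in PC9, 1.67-fold in HCC827 and 2.38-fold in H1975, with log2 differences of 0.66, 0.59 and 1.20 (SE 0.087 each).

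C1S had log2 differences in the same order of lines as its neighbour, but they were less alike between lines. In H1975 it stood at 4.57 and 5.51 FPKM in controls and at 29.003 and 27.0 FPKM with ZNF263, a 5.56-fold higher mean with no overlap. In PC9 both control libraries held 12.1 FPKM and the ZNF263 libraries 13.3 and 14.4 FPKM, a 1.14-fold higher mean. In HCC827 the C1S libraries overlapped, with 1.84 and 2.02 FPKM in controls against 2.19 and 1.88 FPKM with ZNF263. The C1S difference on the log2 scale was 2.27 ± 0.087 in H1975, 0.18 ± 0.087 in PC9 and 0.049 ± 0.087 in HCC827. The ratio of C1R to C1S, both per length in FPKM, therefore ran in opposite directions: it was 3.33 and 3.09 in H1975 control libraries and 1.34 and 1.40 with ZNF263, but 0.862 and 0.798 in PC9 controls and 1.28 and 1.11 with ZNF263. In HCC827 the ratio was 1.75 and 1.62 in controls and 2.74 and 2.57 with ZNF263. These ratios were chosen after the values were seen.

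CFB encodes factor B, which joins C3b to form the protease that amplifies C3 cleavage. In H1975 it stood at 15.3 and 17.0 FPKM in controls and at 74.4 and 70.9 FPKM with ZNF263, a 4.50-fold higher mean. The median difference of the 145 tested genes within 5 Mb of CFB on chromosome 6 was 0.46 on the log2 scale in H1975, so CFB stood 1.64 above its neighbours, of a difference of 2.10 ± 0.086. In HCC827 CFB was abundant already in the controls, with 39.0 and 37.5 FPKM, and stood at 52.6 and 46.7 FPKM with ZNF263, a 1.30-fold higher mean without overlap. In PC9 it was close to the limit of detection, with 0.116 and 0.110 FPKM (6 reads in each control library) against 0.460 and 0.243 FPKM (22 and 12 reads).

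CFI encodes factor I, the plasma protease that cuts C3b and C4b with the help of cofactors such as CD46. HCC827 was the line with a high CFI level, 51.0 and 60.8 FPKM in controls and 81.5 and 78.9 FPKM with ZNF263, a 1.43-fold higher mean without overlap. The difference there was 0.52 ± 0.088 on the log2 scale, and 0.34 after the median of the genes within 5 Mb was taken off. In PC9 CFI was 0.340 and 0.305 FPKM in controls (18 and 17 reads) and 1.15 and 1.38 FPKM with ZNF263 (56 and 70 reads), a 3.92-fold higher mean at a low level. H1975 went the other way, from 1.92 and 1.78 FPKM in controls to 1.49 and 1.66 FPKM with ZNF263, so that its ZNF263 libraries lay just below the controls.

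SERPING1 encodes C1 inhibitor, the serpin that inactivates C1r and C1s, and was almost undetected in these lines. No SERPING1 read was seen in the 4 PC9 libraries, where 3 reads would have been worth between 0.0765 and 0.0872 FPKM. HCC827 libraries held 4 reads in each control and 2 in each ZNF263 library. H1975 controls held 0 and 7 reads and ZNF263 libraries 2 and 4. A difference between the groups was not detectable at this depth, and no fold is given. These limits cover counting error only.

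CD46, the membrane cofactor for factor I, was the most abundant of the membrane inhibitors in the control libraries of every line. In HCC827 it stood at 77.5 and 95.4 FPKM in controls and at 140.1 and 136.8 FPKM with ZNF263, a 1.60-fold higher mean without overlap. In PC9 the groups overlapped, with 49.3 and 51.4 FPKM in controls and 50.5 and 55.3 FPKM with ZNF263. In H1975 CD46 was 67.0 and 69.0 FPKM in controls and 69.5 and 72.5 FPKM with ZNF263. The H1975 difference of 0.061 ± 0.080 on the log2 scale came from a region whose genes were mostly lower: the median of those within 5 Mb was −0.37, which leaves CD46 at 0.43 above them.

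CD55 speeds the decay of the C3-cleaving enzymes and lies 365 kb from CD46 on chromosome 1 (CD55 at chr1:207321376-207386804 and CD46 at chr1:207752057-207795513, both on the plus strand, GRCh38). In H1975 it was 31.9 FPKM in both controls and 14.1 and 13.9 FPKM with ZNF263, a mean 2.28-fold lower. In PC9 it was 15.6 and 15.0 FPKM in controls and 11.0 and 11.1 FPKM with ZNF263, a mean 1.39-fold lower, and in neither line did the groups overlap. HCC827 libraries overlapped, at 47.9 and 53.4 FPKM in controls and 51.7 and 52.1 FPKM with ZNF263. The CD55 difference was −1.13 ± 0.058 in H1975 and −0.44 ± 0.058 in PC9. The genes within 5 Mb of CD55 had a median of −0.33 in H1975, and relative to them CD55 stood at −0.81.

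CD59 blocks the last step of the cascade, the insertion of the membrane pore. It was highest in H1975, at 61.9 and 58.6 FPKM in controls and 70.9 and 70.7 FPKM with ZNF263. In PC9 it was 23.5 and 24.5 FPKM in controls and 21.5 and 22.2 FPKM with ZNF263. HCC827 controls both held 17.8 FPKM and the ZNF263 libraries 16.6 and 16.7 FPKM. The groups did not overlap in any line, but the log2 differences were small: −0.13 ± 0.051 (PC9), −0.089 ± 0.051 (HCC827) and 0.23 ± 0.051 (H1975). In H1975 genes within 5 Mb of CD59 had a median of 0.44, and relative to them CD59 stood at −0.21. The sign in H1975 thus depended on whether that median was taken off, and an effect of the region was not tested.

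**Figure D2:**
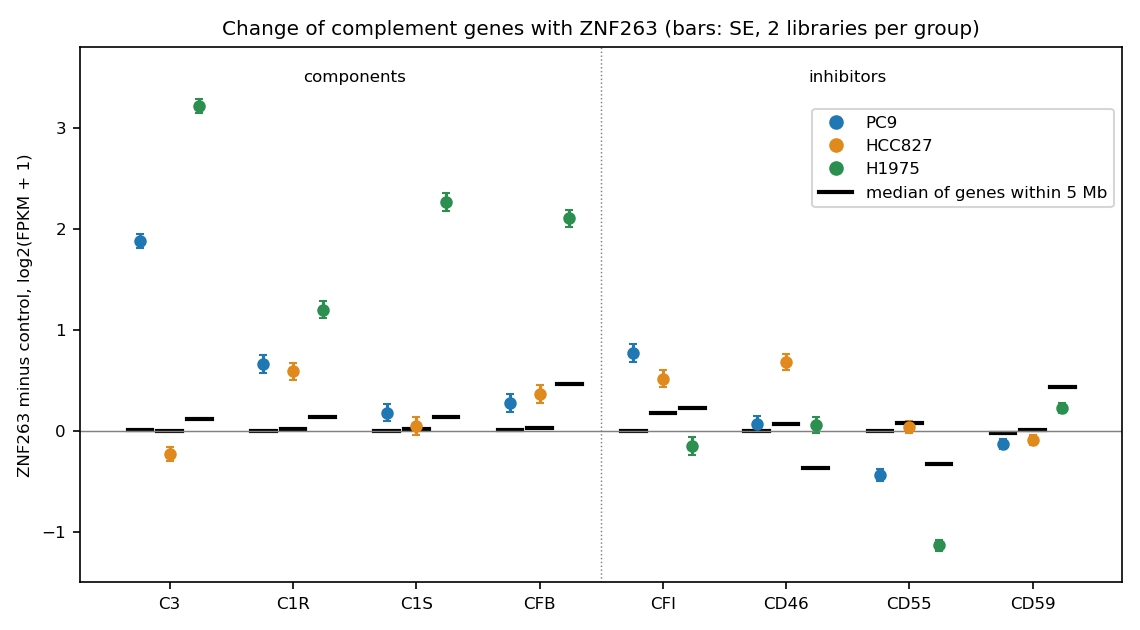
Difference between ZNF263 and control libraries for the 8 complement genes that passed the filter, in log2(FPKM + 1) with SE, by line, with black bars for the median of the genes within 5 Mb. The components C3, C1S and CFB reach 3.22, 2.27 and 2.10 in H1975, CD55 lies at −1.13 there, and in HCC827 the values run from −0.23 to 0.68.

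Counted over the 8 tested members, the ZNF263 libraries of PC9 lay above the controls for 5 and below for 2, where 28.4% and 29.2% of all tested genes did so (57.7% in all). In HCC827 they lay above for 4 and below for 2, against 35.2% and 18.7% of all genes (53.9% in all). In H1975 they lay above for 6 and below for 2, against 41.7% and 40.8% of all genes (82.5% in all). The threshold of limma, a Benjamini-Hochberg adjusted p under 0.05, was passed by 4 members in PC9 (3 higher and 1 lower, with 7.21% and 4.12% of all genes, 11.3% together). It was passed by 5 in HCC827 (4 higher and 1 lower, with 13% and 6.44% of all genes, 19.5% together, though median-of-ratios scaling moved the higher share of all HCC827 calls from 66.9% to 45%) and by 6 in H1975 (5 higher and 1 lower, with 32.1% of all genes each way, 64.2% together). Because this contrast chose the members, nothing is read from these counts. The 4 components had median differences of 0.47 (PC9), 0.21 (HCC827) and 2.19 (H1975), beside medians over all genes of 0, 0.045 and 0.0025. The 4 tested inhibitors had medians of −0.032, 0.28 and −0.043 in the same order.

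Set against each other on the FPKM scale, the summed components and the summed inhibitors gave a different picture in each line. In H1975 the components summed to 84.8 and 92.6 FPKM in controls and to 631 and 620.5 FPKM with ZNF263, of which C3 alone was 77.5% and 78.1%. The inhibitors of H1975 summed to 163 and 161 FPKM in controls and 156 and 159 FPKM with ZNF263, so the quotient of components over inhibitors stood at 0.521 and 0.574 in controls and at 4.04 and 3.91 with ZNF263. In PC9 the quotient was 0.347 and 0.335 in controls and 0.778 and 0.704 with ZNF263. There the components went from 30.8 and 30.5 FPKM to 65.4 and 63.3 FPKM, while the inhibitor sums of the groups overlapped. In HCC827 components and inhibitors were both higher with ZNF263, at 45.2 and 43.7 against 61.5 and 54.1 FPKM for components and at 194 and 227 against 289.9 and 285 FPKM for inhibitors. The HCC827 quotient overlapped between the groups, at 0.233 and 0.192 in controls and 0.212 and 0.190 with ZNF263. Within the membrane inhibitors of H1975 the quotient of CD59 over CD55 was 1.94 and 1.84 in controls and 5.03 and 5.09 with ZNF263. These sums were chosen after the values were seen, are dominated by C3, CD46 and, in HCC827, CFI, and carry no test.

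**Figure D3:**
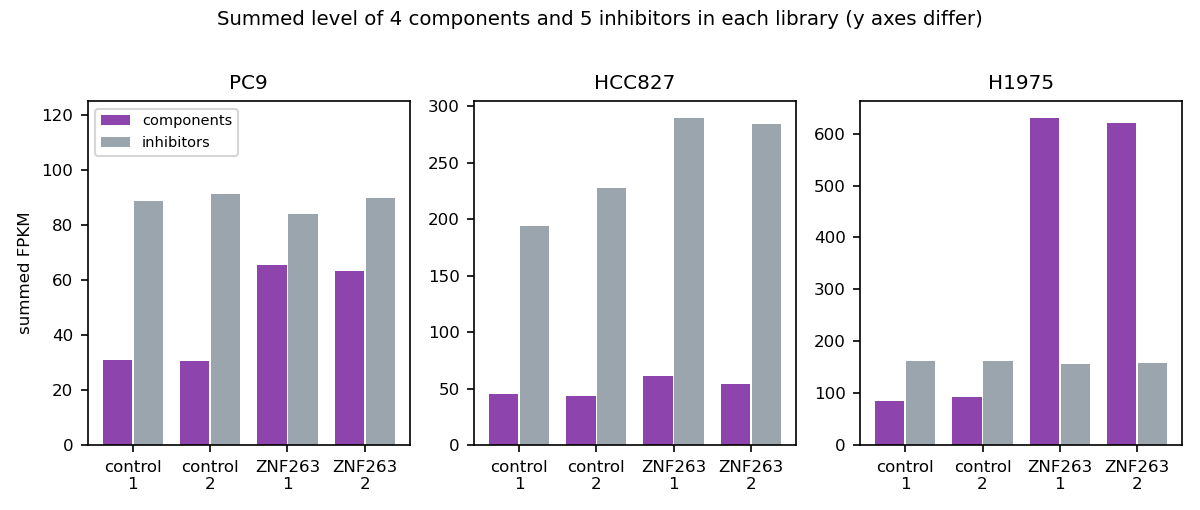
Summed FPKM of the 4 components and of the 5 inhibitors in each library, by line and vector, with a scale of its own for each line. In H1975 the components stand at 631 and 620.5 FPKM with ZNF263 against 84.8 and 92.6 FPKM in controls, while the inhibitors stay between 156 and 163 FPKM.

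Across the control libraries each line had its own complement profile, with the caution that the PC9 columns hold values for more genes than those of the other lines, and that levels between lines were not tested. H1975 had the highest C3, C1R and CD59, HCC827 the highest CFB, CFI, CD46 and CD55, and PC9 the highest C1S. For each of these 8 genes the order of the 3 lines was free of overlap between libraries. The order was H1975, PC9, HCC827 for C3, C1R and CD59, and HCC827, H1975, PC9 for CFB, CFI, CD46 and CD55. For C1S it was PC9, H1975, HCC827. With ZNF263 the C1S order became H1975, PC9, HCC827 and CFB was highest in H1975, while the other 6 genes kept the line in which they were highest.

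Marker levels of other cell types also differed between the groups. In H1975 the summed epithelial markers stood between 2174 and 2216 FPKM in controls and between 1458 and 1484 FPKM with ZNF263. EPCAM went from 219.9 and 229.6 to 31.2 and 32.2 FPKM, and KRT18, KRT19, CDH1 and MUC1 were also lower. KRT8 was higher with ZNF263, at 702 and 683 against 583 and 586 FPKM, while NKX2-1 and NAPSA overlapped between the groups. The fibroblast list summed to between 30.8 and 34.0 FPKM in H1975 controls and between 175.3 and 179.6 FPKM with ZNF263. COL1A2 made up most of the latter, at 168.6 and 164.2 FPKM, while PDGFRA, DCN and THY1 were under 0.5 FPKM in all H1975 libraries. The other detected fibroblast markers were split in H1975: COL1A1 stood at 14.9 and 16.9 FPKM in controls and 9.52 and 9.05 FPKM with ZNF263, LUM at 1.89 and 1.79 against 0.0993 and 0.164 FPKM, and PDGFRB at 0.0404 and 0.197 against 1.36 and 1.88 FPKM. In PC9 the epithelial sum went from between 2259 and 2283 to between 3442 and 3624 FPKM, and in HCC827 the groups overlapped. KRT8 and KRT18 made up nearly all of the PC9 sum. With ZNF263 KRT8 stood at 1662 and 1555 against 1049 and 1041 FPKM, and KRT18 at 1942 and 1867 against 1200 and 1233 FPKM. CDH1 and MUC1 were higher too, at no more than 17.5 FPKM. The macrophage list stood between 80.5 and 89.4 FPKM in H1975, with PTPRC, CD163 and AIF1 under 0.5 FPKM. Within it CD14 was higher with ZNF263, at 21.7 and 18.7 against 2.22 and 3.96 FPKM. CD68 was lower, at 62.9 and 59.98 against 83.1 and 80.9 FPKM, as was CSF1R, at 1.90 and 1.79 against 4.08 and 3.47 FPKM. The part of these marker levels in the complement values was not tested.

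The rest of the pathway was read from a list of 50 other complement genes, of which 9 passed the filter and were tested in each line. None of the 9 is a member, though the list too was drawn up with earlier results of these libraries known. In PC9 2 of the 9 rose and none fell, with a median of 0.21 over the 9 against 0 over all genes. In HCC827 2 rose and 1 fell (median 0.13 against 0.045), and in H1975 5 rose and 1 fell (median 0.29 against 0.0025). The percentages of all genes that passed were those given above, so the H1975 count of 6 of 9 stands beside 64.2%. VTN reached the filter only through ZNF263 libraries and so had to differ; without it 1 of 8 rose in PC9, and 4 rose and 1 fell in H1975.

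VTN encodes vitronectin, a soluble inhibitor of the membrane pore and so a partner by role of CD59. In H1975 it had 5 and 2 reads in controls and 215 and 229 reads with ZNF263, or 3.90 and 4.12 FPKM (log2 difference 2.24 ± 0.079). In PC9 VTN stood at 0.605 and 0.517 FPKM in controls and 1.44 and 1.84 FPKM with ZNF263 (0.75 ± 0.079), while HCC827 libraries held at most 1 read. Because of how VTN reached the filter, these values are a description with no test. C1RL, the C1r-like protease beside C1R, rose in all 3 lines, by 0.45 ± 0.072 in PC9 (limma adjusted p = 0.00147), 0.26 ± 0.072 in HCC827 (adjusted p = 0.0263) and 0.53 ± 0.072 in H1975 (adjusted p = 2.87e-05). The overlap of C1RL with C1R noted above applies to these values too.

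C5, the component that starts the pore, rose in HCC827 (0.32 ± 0.099, limma adjusted p = 0.0405) and H1975 (0.56 ± 0.099, adjusted p = 0.000263), at means of no more than 1.16 FPKM in those lines. SUSD4, a membrane inhibitor, rose in H1975 from 0.636 and 0.828 to 1.81 and 1.28 FPKM (0.55 ± 0.095, limma adjusted p = 0.000231). ITGB2, the beta chain of the complement receptors CR3 and CR4, fell in H1975 from 2.60 and 3.29 to 0.713 and 0.820 FPKM (−1.16 ± 0.089, limma adjusted p = 1.59e-07). C1QBP, a mostly mitochondrial protein that can bind C1q, fell in HCC827 (−0.27 ± 0.060, limma adjusted p = 0.00827) and rose in H1975 (0.29 ± 0.060, adjusted p = 0.000778). The 3 HCC827 calls, C1RL, C5 and C1QBP, were all lost without HCC827 ZNF263 replicate 1, with adjusted p-values of 0.180, 0.305 and 0.0937. Median-of-ratios scaling kept only 1 of them, C1QBP.

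The other 41 listed genes did not pass the filter, and 24 of them stayed under 0.1 FPKM in every library with a value. C1QA, a chain of the recognition unit that C1r and C1s work with, reached no more than 0.0396 FPKM. The other chains, C1QB and C1QC, had values in PC9 alone, where they were listed at 0. Of the terminal pathway, C6, C7, C8A, C8B and C9 reached no more than 0.0122 FPKM where they had a value. For C6 and C8A that was in PC9 alone. C8G, another terminal gene, was higher, with a highest value of 0.629 FPKM in an HCC827 control library. C4A, a substrate of C1s, was 0.0377 and 0.0466 FPKM in H1975 controls and 0.548 and 1.26 FPKM with ZNF263. C4B stood at 0.0160 and 0.0115 FPKM in H1975 controls and 0.451 and 0.453 FPKM with ZNF263. C4A and C4B are near-identical copies whose reads can be split between them, so the values of both are uncertain. C2, the other C1s substrate, stayed under 1 FPKM in every library, with a highest value of 0.974 FPKM in HCC827.

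**Figure D4:**
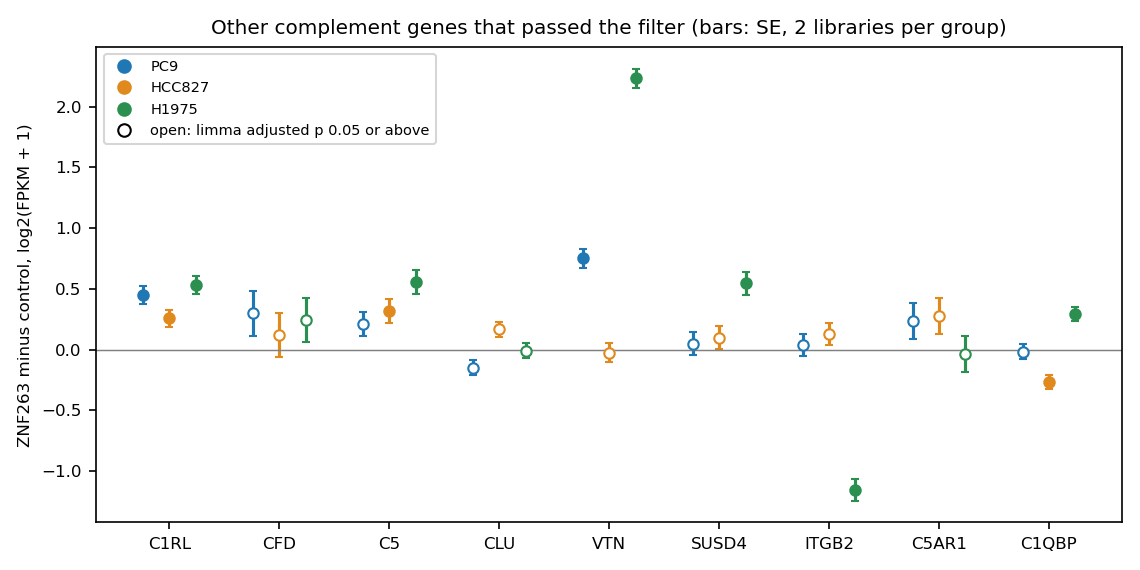
Difference between ZNF263 and control libraries, in log2(FPKM + 1) with SE, for the 9 other complement genes tested, by line; open circles did not pass limma's threshold. VTN at 2.24 and ITGB2 at −1.16, both in H1975, lie furthest from 0.

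Complement genes of epithelial cells are commonly induced with the acute-phase response, by interferon-gamma, IL-6 and IL-1 signalling. Of 20 acute-phase genes, 8 could be tested in H1975, where 5 rose and 2 fell (median 0.52 against 0.0025 over all genes, of which 64.2% passed). PTX3, a pattern-recognition protein that binds C1q, rose by 3.01 ± 0.087 (limma adjusted p = 2.80e-11), and SAA1 by 2.54 ± 0.19 (adjusted p = 9.15e-08), with the limit that SAA1 and SAA2 are near-identical. LCN2 rose by 1.585 ± 0.16 in H1975 (adjusted p = 1.66e-06), and CP, ceruloplasmin, fell by 1.83 (adjusted p = 2.23e-09). In PC9, where 11.3% of all genes passed, 3 of 10 tested rose and none fell. They were LCN2 (1.62 ± 0.16, limma adjusted p = 2.54e-05), FGB (0.61 ± 0.070, adjusted p = 9.55e-05), a fibrinogen chain, and FGG (0.42 ± 0.081, adjusted p = 0.00711). The FGG call was lost with a pseudocount of 0.1 FPKM (limma adjusted p = 0.259) and in a fit of the PC9 libraries alone (adjusted p = 0.0716). Without PC9 control replicate 2 the FGG difference was 0.38. FGB is also in the list of hepatocyte markers, of which the other 5 were under 0.5 FPKM in PC9.

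In HCC827 1 of 10 acute-phase genes rose and 3 fell, with a median of −0.093 against 0.045 over all genes, of which 19.5% passed. SERPINA3 fell by 0.54 (limma adjusted p = 0.00790), PTX3 by 0.42 (adjusted p = 0.00570) and SAA2 by 0.39 (adjusted p = 0.00583), while CP rose by 0.40 (adjusted p = 0.00785). Of these SERPINA3, PTX3 and CP each lost their call in at least 1 fit that left out a library: SERPINA3 without HCC827 ZNF263 replicate 2 (adjusted p = 0.0754), and PTX3 (0.0557) and CP (0.0774) without HCC827 ZNF263 replicate 1. With a pseudocount of 0.1 FPKM, SAA2 (adjusted p = 0.0818) and PTX3 (adjusted p = 0.161) lost theirs. CP was low in HCC827, at 0.255 and 0.235 FPKM in controls and 0.711 and 0.584 FPKM with ZNF263. It was thus under the 1 FPKM of the filter in every HCC827 library.

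Of 32 genes of the inducing pathways, 30 were tested in each line. In H1975 16 rose and 8 fell, a count that stands beside 64.2% of all genes. The 4 largest were IFNGR1, the interferon-gamma receptor chain (1.91 ± 0.082 on the log2 scale, limma adjusted p = 6.90e-10), IRF9 (−1.43, adjusted p = 1.24e-07), the IL-1 receptor IL1R1 (1.395 ± 0.067, adjusted p = 1.74e-09) and its ligand IL1A (−1.37, adjusted p = 1.72e-09). In PC9 1 rose and 7 fell of 30, beside 11.3% of all genes: NFKB2 fell by 0.71 (limma adjusted p = 7.78e-05), RELB by 0.61 (adjusted p = 0.000245) and TNFRSF1A by 0.27 (adjusted p = 0.0176, but 0.124 without PC9 ZNF263 replicate 2), and CEBPD rose by 0.58 (adjusted p = 1.94e-05). In HCC827 4 rose and 4 fell, beside 19.5% of all genes, led by IL1R1 (0.61, limma adjusted p = 7.88e-05), CEBPB (−0.50, adjusted p = 0.000139), NFKB2 (−0.42, adjusted p = 0.00288) and NFKBIZ (0.40, adjusted p = 0.0114, but 0.0848 without HCC827 ZNF263 replicate 1).

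The genes whose pattern over the 12 libraries was most like that of a member were found among 12218 genes by the root-mean-square difference of log2(FPKM + 1), after each gene's mean within a line was taken off. What is left then is the contrast that chose the members and the spread between libraries. The nearest genes lie below the median of all genes by construction, so the distances are a description with no test. Nearest to C3 were the chemokine CXCL1 (0.336), CA9 (0.353) and BMP4 (0.367), against a median of 1.08 over all genes. In H1975 CXCL1 differed by 2.19, CA9 by 2.54 and BMP4 by 3.14 on the log2 scale, against 3.22 for C3. CXCL1 stood at 11.5 and 11.5 FPKM in PC9 controls and 31.9 and 34.5 FPKM with ZNF263, at 6.49 and 7.74 against 39.1 and 33.2 FPKM in H1975, and overlapped in HCC827. Nearest to C1S were NADK2 (0.0801), LRIG1 (0.0812) and GXYLT2 (0.0814), beside a median of 0.665. Like C1S these 3 genes differed mainly in H1975, where NADK2 went from 9.83 and 11.1 to 55.9 and 52.9 FPKM. Nearest to CD55 were LRRC8C (0.0573), the receptor kinase MET (0.0602) and DUSP6 (0.0819), beside a median of 0.368. MET stood at 90.9 and 90.6 FPKM in H1975 controls and 40.5 and 43.7 FPKM with ZNF263, and at 74.3 and 75.7 against 56.6 and 62.9 FPKM in PC9. SERPING1 did not pass the filter, so no likeness was computed for it.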

How the data were processed

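The 9 complement genes and the gene lists were chosen with earlier results of these data known. The authors deposited FPKM values, 1 column per library, per the file headers. GRCh38.p13 is the build named, per the submitters' processing notes. No aligner, counter, annotation or strand setting is given in the sources used here. Left out were 27 entries whose names had become dates; values were missing for 3383 genes (HCC827) and 3339 genes (H1975). Each library was grouped by its line and vector labels.

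Genes that reached 1 FPKM in 2 libraries or more, of 12, were tested on log2(FPKM + 1) with limma 3.58.1 (R 4.3.3; 6 group means, shared spread, mean-variance trend), ZNF263 minus control within a line, with Benjamini-Hochberg adjustment over all genes of the line and calls under 0.05; the procedure was checked on simulated data. A limma F test compared the 3 lines. Files were handled with Python 3.11.15 and pandas 2.3.3. Whole reads were recovered from the FPKM values of 99.4% (PC9), 99.5% (HCC827) and 98.5% (H1975) of genes (up to 20000 reads, tolerance 0.0001 plus 2e-07 per read; the tolerance was tightened after false matches, and a factor common to a gene was set from the line where a read was worth least). The 2 libraries of each group differed by more than sampling noise (mean chi-square 1.63 to 3.88 for genes of 10 to 50 reads), so none was a repeat deposit. Gene positions are those of GENCODE v29, found for 19261 genes, and promoter strings came from RefSeq windows.

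All members and every other complement gene that was called were named. So were up to 4 called genes per line with the largest difference from the acute-phase and inducer lists. The 3 nearest patterns to C3, C1S and CD55 were named too. Exceptions (C2, C4A, C4B, the C1q chains, terminal genes and SAA2 in H1975) were chosen after their values were seen. The results of 1 listed gene are not reported here. Replicate numbers did not pair the libraries: deviations of same-numbered libraries correlated at 0.0351 (PC9), 0.104 (HCC827) and −0.0611 (H1975), over 2 pairs each. Alternatives were another pseudocount, filter and scaling, each line alone, a replicate block, neighbours subtracted and each library left out.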

Additional observations from a re-analysis of the deposited data

Results flagged for a closer look

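For C3, CFI and CD59 every ZNF263 library lay above the controls in one line and below them in another. The share of all genes that did so is not given here, so nothing is read from that number of members. Within a line, 57.7% (PC9), 53.9% (HCC827) and 82.5% (H1975) of all tested genes did not overlap. Some of the members' differences were small: −0.15 ± 0.088 for CFI in H1975, and −0.13 ± 0.051 (PC9) and −0.089 ± 0.051 (HCC827) for CD59. The C3 difference in PC9 exceeded that in HCC827 by 2.11 on the log2(FPKM + 1) scale, and the HCC827 difference minus that of H1975 was −3.45. For CFI the PC9 difference exceeded that of H1975 by 0.92 and the HCC827 difference exceeded it by 0.66. For CD59 the PC9 difference minus that of H1975 was −0.36 and the HCC827 difference minus that of H1975 was −0.32. The contrast between lines was not tested for these members, because their differences were known when the set was chosen.

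Among the 9 other complement genes tested, ITGB2, C1QBP, SUSD4 and CLU had differences between ZNF263 and control that differed between the 3 lines. This was by limma's F test after Benjamini-Hochberg adjustment over 12218 genes. The share of all those genes that passed is not given here, so nothing is read from how many of the 9 did. The adjusted p was 2.696e-06 for ITGB2, 0.000261 for C1QBP, 0.0101 for SUSD4 and 0.01995 for CLU. For VTN it was 1.144e-08, but VTN reached the filter only through ZNF263 libraries of PC9 and H1975, so nothing is read from that value. CLU, the soluble pore inhibitor clusterin, passed the threshold in none of the lines taken singly, with differences of −0.15 (PC9), 0.17 (HCC827) and −0.0087 (H1975).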

How the results depend on the processing

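Of the 24 differences of the 8 tested members, 21 kept their sign under all 11 alternatives each, and 3 did not (C1S and CD55 in HCC827, which overlapped, and CD59 in H1975). CD59 in H1975 turned to −0.21 after the median of the genes within 5 Mb was taken off. With a pseudocount of 0.1 FPKM the low members moved most, CFI in PC9 to 1.69, CFB in PC9 to 1.04 and C3 in HCC827 to −0.44, and 2 rather than 4 acute-phase genes passed in HCC827 (SAA2 and PTX3 did not). Median-of-ratios scaling left 1 of 3 other complement genes in HCC827, and moved the share of calls that were higher there from 66.9% to 45% (50.5% with quantile normalization). Fitted on its own 4 libraries, PC9 had 407 genes called in place of 1430 and HCC827 634 in place of 2386. In these fits, other complement genes called by limma numbered 0 in both lines (6 and 3 at an unadjusted p under 0.05), and inducer genes 1 in PC9 and 4 in HCC827; fewer libraries share the spread there. With each library left out in turn, PC9 had 591 to 854 genes called, HCC827 1082 to 3109 and H1975 6886 to 6970; the lowest HCC827 count was without ZNF263 replicate 1. Other complement genes called then numbered 2 in each PC9 fit and 0 to 3 in HCC827 (for the 0, 3 at an unadjusted p under 0.05), acute-phase genes 2 to 3 and 3 to 5, and inducer genes 3 to 5 and 3 to 9, while H1975 had counts of 6, 7 and 24. With the replicate number as a block, genes called were 1364 in PC9, 2262 in HCC827 and 7850 in H1975, and no count moved by over 1.5 times. Depth limits SERPING1 in all lines and CFB and CFI in PC9.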
